A study of Homo sapiens with 8 samples.

Results

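The interaction of 5-fluorouracil (5-FU) and 3-MB-PP1 in HCT-116 cells was examined gene by gene in the 8 RNA libraries of the series, all 8 of which belong to a 2 by 2 design of 4 groups with 2 libraries each. HCT-116 is an established human colorectal cancer cell line. Vehicle cells received DMSO for 12 h and DMSO again for 4 h, and the 5-FU group received 40 µM 5-FU for 12 h and then DMSO for 4 h. The 3-MB-PP1 group received DMSO for 12 h and then 2.5 µM 3-MB-PP1 for 4 h, and the both-drug group received 40 µM 5-FU for 12 h and then 2.5 µM 3-MB-PP1 for 4 h. All cells were rinsed with buffered saline between the steps, so the 5-FU groups spent the last 4 h without 5-FU in the medium. The title and design text of the series concern Cdk7 inhibitors and the p53 program, but neither the allele of any kinase in these cells nor whether they were a single clone is given in the labels. For each gene, the log2 change with 3-MB-PP1 after DMSO was subtracted from the log2 change with 3-MB-PP1 after 5-FU. An interaction of 0 is additivity on the log2 scale, where the fold changes of the drugs multiply. A gene above additivity had more RNA in the both-drug group than this product, and a gene below additivity had less.

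5-FU is an antimetabolite that blocks thymidylate synthase and enters RNA and DNA, and in cells with functional p53 it raises p53 target genes such as CDKN1A and MDM2. CDK7 is the kinase of the general transcription factor TFIIH, which phosphorylates the largest subunit of RNA polymerase II at promoters, and it also activates the kinases of the cell cycle. 3-MB-PP1 is a bulky ATP analogue that inhibits kinases whose ATP pocket has been enlarged by mutation. Whether the effects of a DNA-damaging drug and of such an inhibitor multiply or depart from multiplication is what an interaction term measures.

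The libraries held between 10579257 and 50494810 gene counts. The deepest was 3-MB-PP1 replicate 1, and the other 7 held at most 16762250. Of 23873 genes with a symbol, 15714 had enough counts to be tested. Log2 CPM (counts per 1e+06 counts of the library, TMM-scaled) correlated at 0.993 to 0.994 across genes between the libraries of a group, and the common biological coefficient of variation was 0.0423. Of 10 colorectal epithelium markers, 9 were at 1 RPKM or more in every library, and 1 of 6 fibroblast, 1 of 5 leukocyte and 1 of 4 endothelial markers were. The summed epithelial level was 1557 to 2849 RPKM, and the summed fibroblast level 2.04 to 3.41 RPKM. The labels number the replicates without saying whether they were separate cultures, so p-values reflect only how far these samples spread.

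With edgeR, 331 genes lay above additivity and 314 below it at an adjusted p under 0.05. These 645 genes are 4.1% of the genes tested, 2.11% above and 2% below, and the median interaction over all 15714 genes was 0.01. Departures over 2-fold numbered 13 above and 41 below, and those over 1.5-fold 68 and 138, so among called genes more of those below had large departures. The median level was 78.2 CPM for the called genes above and 50.7 CPM for those below. The part of level in these sizes was not tested. On the linear CPM scale the drugs' differences add and do not multiply. The sign was the same there for 331 of the 331 genes above, 312 of the 314 below and 91.5% of all tested. Both scales use the same 4 group means. A gene that each drug alone lowers is, if above the product, also above the sum by algebra. These counts therefore give the calls no separate support.

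The genes on either side had a common shape across the 4 groups. Of the 331 genes above additivity, 243 (73.4%) had their lowest group mean in the 5-FU group, against 26.9% of all genes tested, and 237 (71.6%) their highest in the vehicle group, against 27.6%. Of the 314 genes below additivity, 213 (67.8%) had their highest mean in the 5-FU group, against 26.6% of all genes. Their lowest mean was in the vehicle group for 160 (51%, against 25.6% of all genes) and in the both-drug group for 97 (30.9%, against 23.7%). Among the genes above, the 3-MB-PP1 effect was negative after DMSO in 281 and positive after 5-FU in 270. Among those below, it was positive after DMSO in 201 and negative after 5-FU in 263. Over all genes tested, the median 3-MB-PP1 effect was -0.01 after DMSO and 0.003 after 5-FU. The same 4 group means enter the interaction, so these counts describe the called genes and give the calls no separate support.

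**Figure D1:**
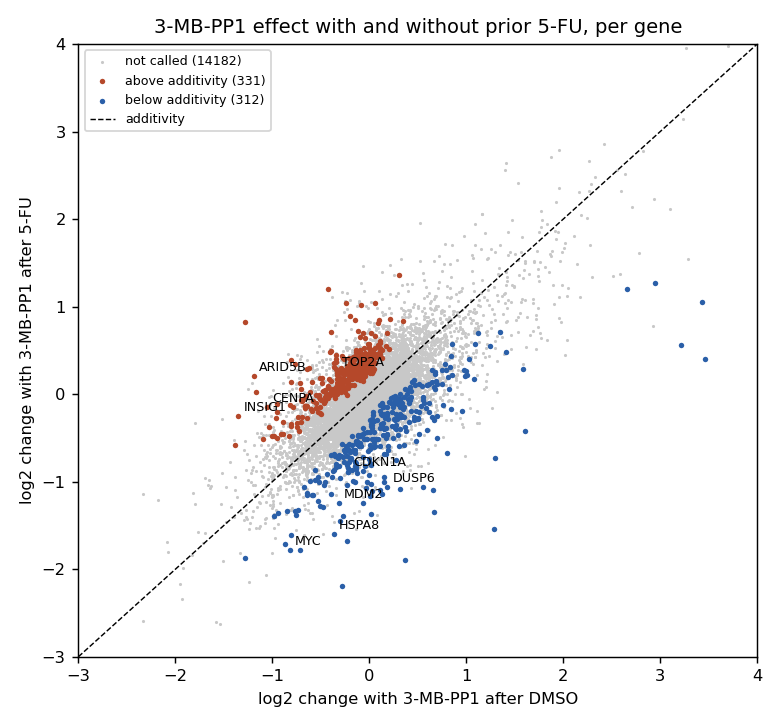
Log2 change with 3-MB-PP1 after DMSO (horizontal axis) against the log2 change with 3-MB-PP1 after 5-FU (vertical axis), 1 point per gene with a mean of at least 1 CPM, 12 genes lying outside the axes. The 331 genes above additivity (red) sit above the dashed line of equal effects and the 312 plotted genes below it (blue) sit under it, with HSPA8, MDM2 and MYC named among the genes below.

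These counts depended on the libraries used. Without both-drug replicate 2 there were 87 genes above and 193 below, without vehicle replicate 1 there were 104 and 142, without 5-FU replicate 1 there were 140 and 184, and without 3-MB-PP1 replicate 1, the deepest library, there were 162 and 191. The number above was 163 without both-drug replicate 1, 197 without vehicle replicate 2 and 552 without 3-MB-PP1 replicate 2. Scaling to the ERCC spike-in RNA left 0 genes called in either direction (smallest adjusted p = 0.996 in edgeR, 75 genes at an unadjusted p under 0.05) and moved the median interaction of all genes from 0.01 to -0.31. The spike-ins took 2.18% to 4.16% of the library totals and differed within groups, for example 2.18% and 3.83% in the 3-MB-PP1 group. Spike-in scaling changes the library sizes alone and so moves all genes by a similar amount. The signs under it therefore follow from the sizes of the interactions and give the calls no separate support. All 314 genes below additivity stayed negative, and 256 of the 331 above stayed positive, or 331 relative to the shifted median. All calls below are therefore relative to the other genes.

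**Figure D2:**
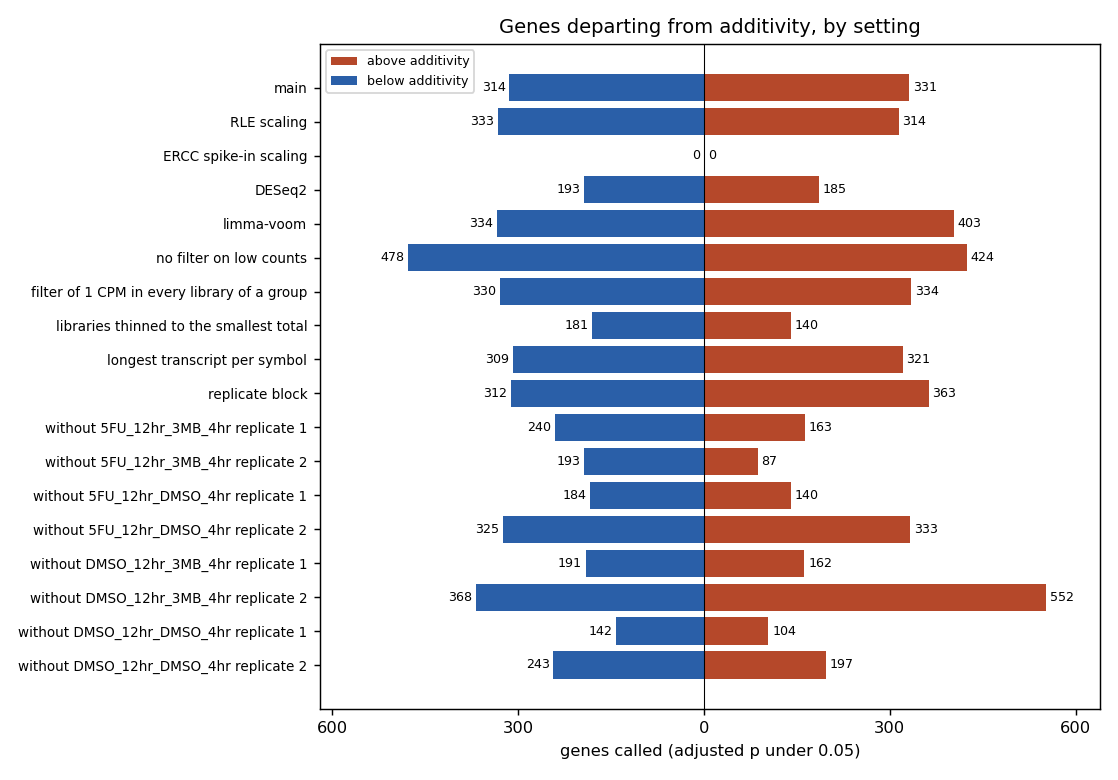
Number of genes called above (red, to the right) and below additivity (blue, to the left) under each way of processing and with each library left out. With TMM scaling and all libraries there were 331 and 314 genes, spike-in scaling 0 and 0, and the fits without 1 library from 87 to 552 above and from 142 to 368 below.

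Several p53 targets with high levels after 5-FU lay below additivity. MDM2 and CDKN1A were higher after both drugs than in vehicle and lower than after 5-FU alone. MDM2, the ubiquitin ligase that degrades p53, had 449 and 426 CPM in the vehicle libraries, 2059 and 2211 after 5-FU, 355 and 348 after 3-MB-PP1, and 889 and 910 after both drugs. The 4 groups did not overlap, and the both-drug libraries lay between the vehicle and the 5-FU libraries. Multiplied fold changes would give 1716 CPM, and the both-drug mean of 900 ± 14.8 (SD, n = 2) was 52.4% of that. The interaction was -0.93 (SE 0.06, adjusted p = 1.70e-09), from a 3-MB-PP1 effect of -0.31 after DMSO and of -1.25 after 5-FU. MDM2 lies on chromosome 12 of hg19 from 69201971 to 69239320 on the plus strand.

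CDKN1A, the cell cycle inhibitor p21, had 192 and 198 CPM in vehicle, 1585 and 1491 after 5-FU, 170 and 163 after 3-MB-PP1, and 848 and 817 after both drugs. Again the groups did not overlap, and the both-drug mean of 833 ± 22.4 (SD, n = 2) was 63.2% of the 1318 CPM of multiplied effects. Its interaction was -0.67 (SE 0.07, adjusted p = 5.56e-07). CDKN1A lies on chromosome 6 of hg19 from 36646487 to 36655116, plus strand. PLK3, a stress-responsive polo-like kinase, had an interaction of -0.59 (adjusted p = 3.73e-04). Its level was 34.4 CPM in vehicle, 101 after 5-FU, 50.3 after 3-MB-PP1 and 98.6 after both drugs, so the both-drug libraries reached 66.7% of the product. A gene on the opposite strand overlaps PLK3, and whether counting used strand is not known, which makes its value uncertain.

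The gene lists were chosen with earlier results of these data known, so a list's share describes its members and is no test. Over all genes tested, 2% were below and 2.11% above, the background for each list here and further on. Of all values, 8234 were positive and 7480 negative. Of 20 tested p53 targets of arrest and feedback, 6 were below additivity and 1 above, with a list median of -0.08 against 0.01 over all genes. The 1 above was CCNG1, cyclin G1, chosen after its value was seen (0.31), and 0 were above without either both-drug library, 5-FU replicate 1, 3-MB-PP1 replicate 1 or vehicle replicate 1. CCNG1 turned to -0.05 under spike-in scaling. Of 17 apoptotic p53 targets, 4 were below (BCL2L1, PMAIP1, TNFRSF10B and TNFRSF10D) and 0 above, also with a median of -0.08. The apoptotic count was lower in every fit that left out 1 library, each of which has a group with a single library. It was 2 after all libraries were thinned to the smallest total. TNFRSF10D, a decoy receptor for the death ligand TRAIL, was higher after each drug and below additivity after both (-0.43, SE 0.07, adjusted p = 6.66e-04), with group means of 93.9, 209, 205 and 338 CPM in the order vehicle, 5-FU, 3-MB-PP1 and both drugs. BCL2L1, which encodes the survival protein BCL-XL and sits in the apoptotic target list and in the BCL2 family list, had means of 161, 248, 197 and 230 CPM in that order and an interaction of -0.40 (SE 0.07, adjusted p = 0.00111). It was the 1 called gene of 13 BCL2 family and apoptosis inhibitor genes, and that list's count was 2 with no filter on low counts. Of 31 p53 targets in repair, metabolism and signalling, 3 were below (GDF15, SERTAD1 and SLC12A4) and 1 above (PLCL2). The number below was 1 without both-drug replicate 2, 5-FU replicate 1, 3-MB-PP1 replicate 1 or either vehicle library. The number above was 0 without both-drug replicate 2 or 3-MB-PP1 replicate 1, 2 without 5-FU replicate 2 and 3 without 3-MB-PP1 replicate 2.

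Other genes fixed by name did not pass. BBC3, the pro-apoptotic protein PUMA, had 11.4 and 9.60 CPM in vehicle, 40.3 and 37.3 after 5-FU, 5.71 and 3.95 after 3-MB-PP1, and 14.9 and 15.1 after both drugs. Its both-drug mean was 83.7% of the product (interaction -0.39, SE 0.19, adjusted p = 0.277). Without 3-MB-PP1 replicate 1, the deepest library, its interaction was 0.03 (adjusted p = 0.978, from 0.0988 to 0.996 over all alternatives). BBC3 overlaps other genes on both strands. CDK7, the kinase of TFIIH, was near additivity (-0.09, SE 0.09, adjusted p = 0.685). MCL1, a survival protein of the BCL2 family, had an interaction of -0.22 (SE 0.07, adjusted p = 0.0788). It was called below additivity when no filter on low counts was used.

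**Figure D3:**
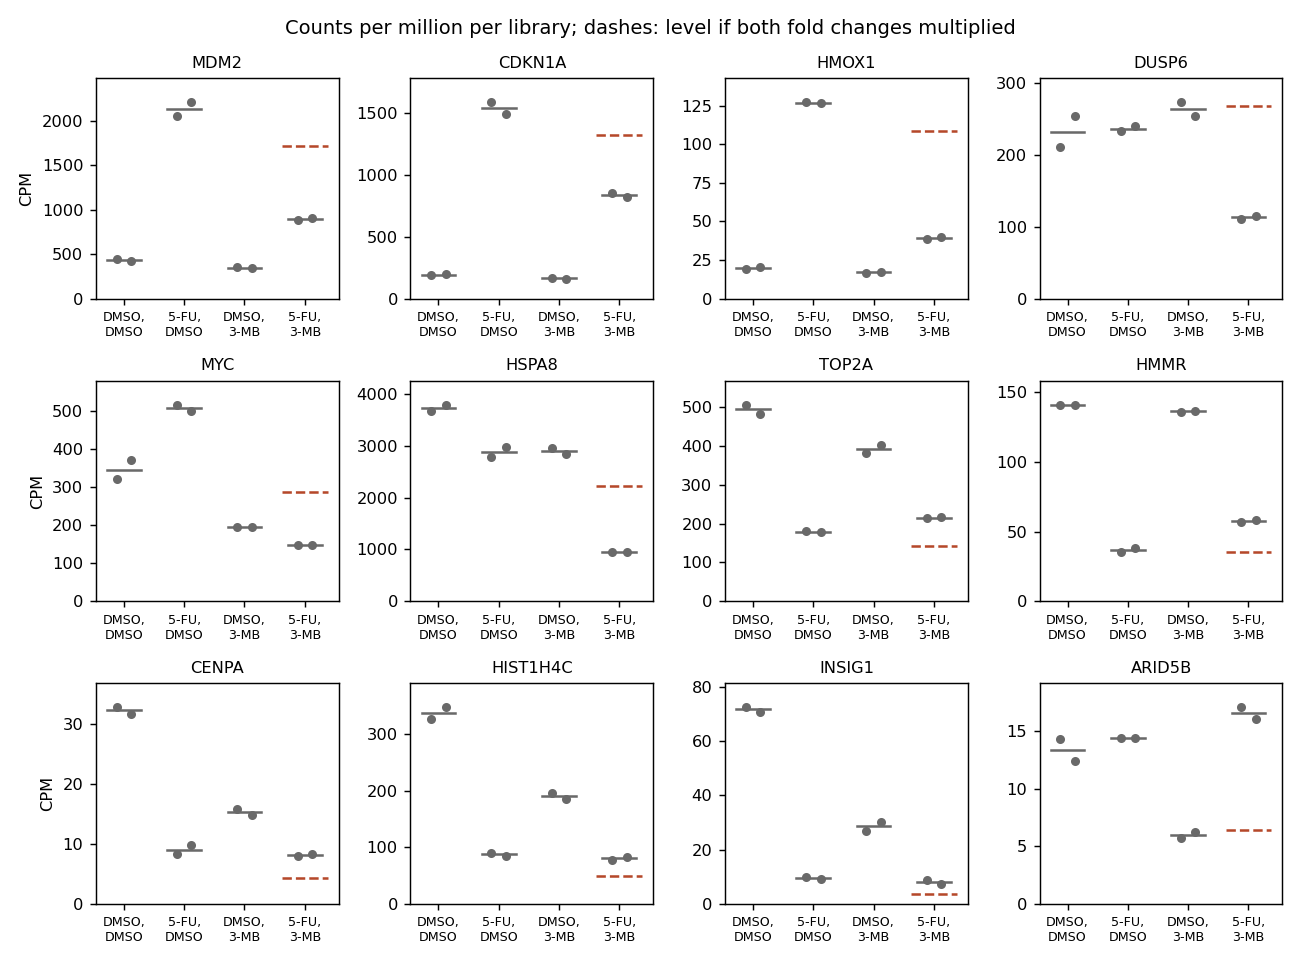
CPM of 12 genes in each of the 8 libraries (points) by group, with a solid line at the mean of 2 libraries and a red dashed line at the level that multiplied fold changes would give. The both-drug libraries of MDM2, CDKN1A, HMOX1, DUSP6, MYC and HSPA8 lie under the dashed line, and those of TOP2A, HMMR, CENPA, HIST1H4C, INSIG1 and ARID5B lie over it.

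Immediate early genes, which cells transcribe within minutes of a growth factor or stress signal, lay mostly on the lower side. Of 30 tested, 12 were below additivity (40% against 2% of all genes) and 0 above, 29 had a negative interaction, and the list median was -0.59. The count below was 9 to 14 in the fits that left out 1 library. JUN, a subunit of the AP-1 transcription factor, had 8.33 and 9.22 CPM in vehicle, 30.5 and 28.8 after 5-FU, 9.59 and 9.12 after 3-MB-PP1, and 14.0 and 13.8 after both drugs. The 5-FU libraries stood far above the other 6, and the both-drug mean was 44% of the product (interaction -1.20, SE 0.16, adjusted p = 3.77e-05). IER3, a stress-induced survival gene, had 237 and 285 CPM in vehicle, 503 and 506 after 5-FU, 167 and 150 after 3-MB-PP1, and 147 and 146 after both drugs. Its both-drug libraries were thus the lowest of all 8, with an interaction of -1.07 (SE 0.09, adjusted p = 3.95e-08).

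MYC, a transcription factor of growth and proliferation, had 320 and 370 CPM in vehicle, 516 and 499 after 5-FU, 195 and 196 after 3-MB-PP1, and 146 and 149 after both drugs. The 5-FU libraries were the highest and the both-drug libraries the lowest, at 51.4% of the product (interaction -0.96, SE 0.08, adjusted p = 2.50e-08). ZFP36, an RNA-binding protein that promotes decay of AU-rich messages (-1.12, adjusted p = 6.44e-04), and KLF2, a Krüppel-like transcription factor (-1.10, adjusted p = 0.00253), shared the peak in the 5-FU group. ZFP36 had 28.6 and 31.2 CPM there and at most 16.6 in the other 6 libraries. FOS, the usual partner of JUN, did not pass and was the 1 member with a positive value (0.10, SE 0.23, adjusted p = 0.873), which was negative without both-drug replicate 2, 3-MB-PP1 replicate 1 or vehicle replicate 2, under spike-in scaling and after thinning.

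Feedback genes of the MAP kinase pathway, which are induced by ERK signalling and restrain or relay it, lay mostly on the same side. Their values were negative in 19 and positive in 3, which were DUSP10 (1.025), SPRY2 (0.56) and ETV5 (0.15), none of them called. The share below additivity was 45.5%, against 2% of all genes. Of 22 tested, 10 were below and 0 above, with a median of -0.46 and 8 to 12 below in the fits that left out 1 library. DUSP6, a phosphatase that inactivates ERK, had 211 and 254 CPM in vehicle, 233 and 241 after 5-FU, 274 and 255 after 3-MB-PP1, and 112 and 115 after both drugs. The first 3 groups overlapped or lay close together, and the both-drug libraries alone stood apart, at 42.1% of the product (interaction -1.25, SE 0.09, adjusted p = 3.63e-09). DUSP6 thus differed from MDM2 and JUN in having no peak in the 5-FU group.

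DUSP4, another MAP kinase phosphatase, was higher after each drug, with 176 and 190 CPM in vehicle, 384 and 366 after 5-FU, 294 and 299 after 3-MB-PP1, and 317 and 315 after both drugs. The both-drug libraries stayed under the 5-FU libraries, at 51.9% of the product (interaction -0.94, SE 0.07, adjusted p = 4.20e-09). LIF, a cytokine of the interleukin 6 family, had 61.3 and 59.6 CPM after 5-FU and 26.5 to 29.6 CPM in the other 6 libraries, which overlapped (interaction -1.13, SE 0.11, adjusted p = 4.14e-07). SPRY4, a Sprouty inhibitor of receptor tyrosine kinase signalling, had an interaction of -0.74 (SE 0.10, adjusted p = 2.53e-05).

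Targets of BMP and TGF-beta signalling, in which receptor kinases activate SMAD transcription factors, were below additivity in 4 of 14 and above in 0, with a list median of -0.36. The ID genes, which encode helix-loop-helix proteins that block other factors of their class, shared a peak after 5-FU. ID1 had 84.4 and 95.1 CPM in vehicle, 193 and 177 after 5-FU, 100 and 98.4 after 3-MB-PP1, and 91.9 and 93.6 after both drugs. The both-drug libraries lay within the range of the vehicle libraries (interaction -1.15, SE 0.09, adjusted p = 8.36e-09). ID3 had the larger interaction (-1.40, SE 0.13, adjusted p = 6.49e-08), with means of 23.3, 55.0, 29.0 and 26.0 CPM in vehicle, 5-FU, 3-MB-PP1 and both drugs, and ID2 had -0.94 (SE 0.10, adjusted p = 1.77e-06). The 3 ID genes were among the 4 called. Targets of the YAP coactivator gave 5 below and 0 above of 20, with a median of -0.21 and 2 below without vehicle replicate 1. The 5 were AMOTL2, CRIM1, F3, GADD45B and NT5E. F3 is the coagulation initiator tissue factor (-1.17, SE 0.16, adjusted p = 3.11e-05), and AMOTL2 is an angiomotin that binds YAP (-0.90, SE 0.13, adjusted p = 8.44e-05).

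Hypoxia and glycolysis genes lay below additivity in 7 of 19 (36.8% against 2% of all genes) and above in 0. All 19 values were negative, with a median of -0.37. The count was 4 without 5-FU replicate 1 and 3 without vehicle replicate 1. NDRG1, a stress-responsive gene induced by low oxygen, had 53.3 and 63.4 CPM in vehicle, 190 and 148 after 5-FU, 82.2 and 97.1 after 3-MB-PP1, and 131 and 124 after both drugs (interaction -1.003, SE 0.13, adjusted p = 2.95e-05). BNIP3L, a receptor for the removal of mitochondria, had 52.8 and 61.0 CPM after 3-MB-PP1 and 34.4 to 45.3 in the other 6 libraries (-0.79, SE 0.12, adjusted p = 1.35e-04). Of 17 NRF2 antioxidant genes, 3 were below (GCLM, HMOX1 and OSGIN1) and 0 above, with 1 below after all libraries were thinned to the smallest total. GCLM lost its call without both-drug replicate 2 or vehicle replicate 2, and OSGIN1 without both-drug replicate 1, 5-FU replicate 1, 3-MB-PP1 replicate 1 or vehicle replicate 1. HMOX1, the heme oxygenase that breaks down heme, had 19.2 and 20.7 CPM in vehicle, 127 and 127 after 5-FU, 16.8 and 17.4 after 3-MB-PP1, and 38.8 and 40.3 after both drugs. The groups did not overlap, and the both-drug mean was 36.3% of the product (-1.45, SE 0.11, adjusted p = 3.63e-09).

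Other genes outside the lists had large departures in the same direction. BHLHE40, a helix-loop-helix repressor of the circadian and hypoxia systems, had 48.6 and 37.2 CPM after 5-FU and 14.5 to 25.8 CPM in the other 6 libraries (-1.61, SE 0.18, adjusted p = 2.57e-06). ANGPTL4, a secreted inhibitor of lipoprotein lipase, had means of 4.62, 20.2, 7.48 and 7.90 CPM in vehicle, 5-FU, 3-MB-PP1 and both drugs (-2.01, SE 0.22, adjusted p = 1.72e-06). TNS4, a focal adhesion protein, had 106 and 93.4 CPM after 5-FU and 41.5 to 52.2 CPM in the other 6 libraries (-1.18, SE 0.10, adjusted p = 3.32e-08). All of these peaked in the 5-FU group.

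Chaperone genes went both ways, with 3 of 14 heat shock and chaperone genes below additivity (HSPA8, HSPA1A and HSPA1B) and 2 above (HSP90AA1 and HSPD1). HSPA8, the constitutive cytosolic chaperone HSC70, had the smallest adjusted p of all genes tested. Its libraries held 3665 and 3796 CPM in vehicle, 2778 and 2972 after 5-FU, 2953 and 2834 after 3-MB-PP1, and 945 and 951 after both drugs. The 5-FU and 3-MB-PP1 libraries of HSPA8 overlapped, somewhat under vehicle, and the both-drug libraries stood far below every other at 42.5% of the product (interaction -1.23, SE 0.06, adjusted p = 8.46e-13). HSPA8 lies on chromosome 11 of hg19 from 122928200 to 122932901, minus strand. HSPA1A, the stress-inducible HSP70, was also below (-0.41, SE 0.08, adjusted p = 0.00372), but it shares most of its sequence with HSPA1B, so its counts are uncertain. HSP90AA1, the inducible cytosolic HSP90, lay above additivity, with means of 2664, 1890, 3018 and 3065 CPM in vehicle, 5-FU, 3-MB-PP1 and both drugs (0.52, SE 0.10, adjusted p = 0.00253). That call ended under DESeq2 (adjusted p = 0.184, and from 2.36e-16 to 0.996 over all alternatives). The count of chaperones above was 1 without either both-drug library, without 5-FU replicate 1, without 3-MB-PP1 replicate 1 or without vehicle replicate 1.

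**Figure D4:**
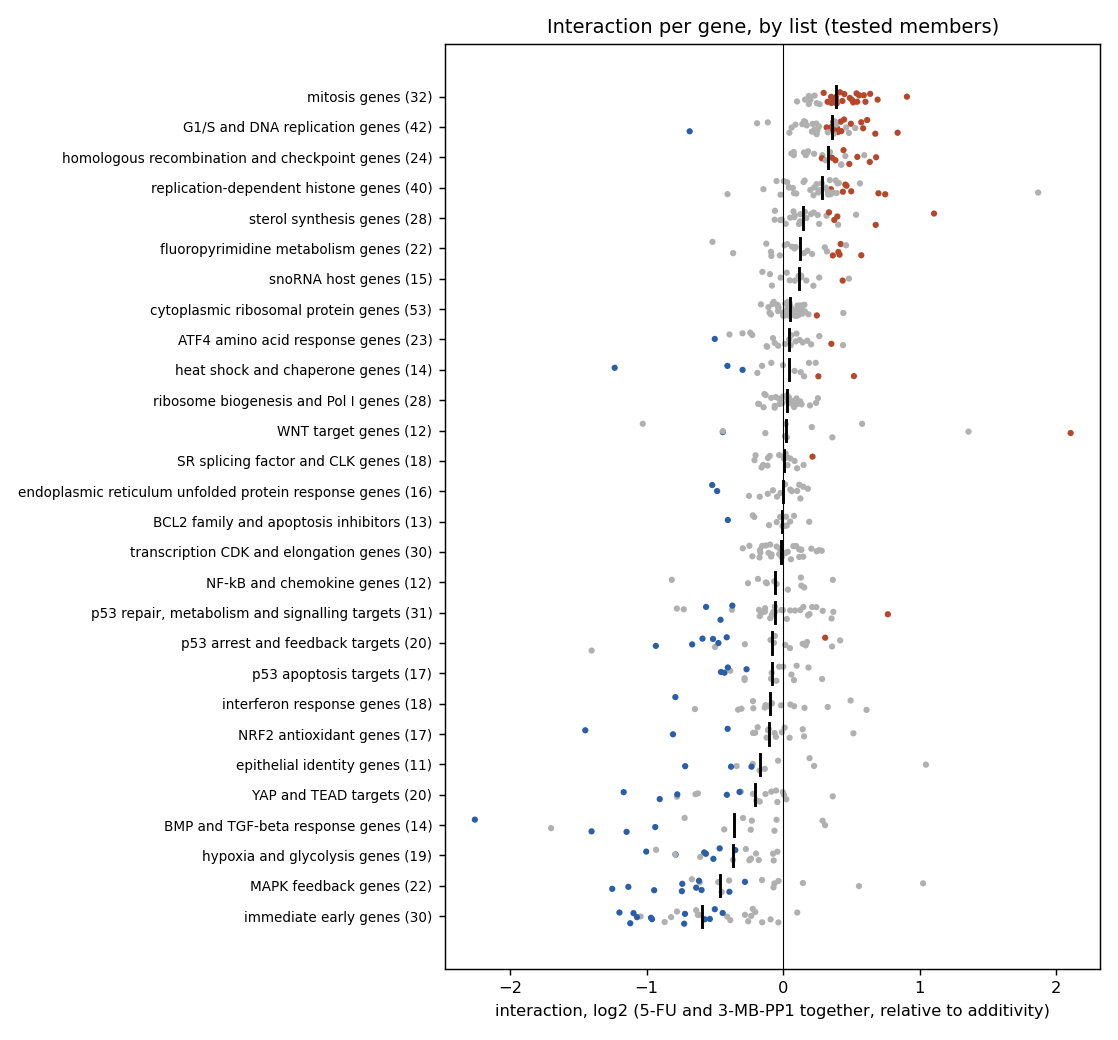
Interaction of each tested member (points) by gene list, with called genes in colour (red above, blue below), grey points for the others and a black bar at the list median; lists with at least 10 tested members are shown. Mitosis genes lie wholly to the right of 0 with a median of 0.39, hypoxia genes wholly to the left, and immediate early genes have the lowest median at -0.59. The lists were chosen with earlier results of these data known.

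Mitosis genes were the list with the highest share above additivity. As with every list, they were chosen with earlier results of these data known, so this share gives the calls no separate support. Of 32 tested, 22 were above (68.8% against 2.11% of all genes) and 0 below, all 32 values were positive, and the median was 0.39 against 0.01 over all genes. There were 12 above without both-drug replicate 2 and 14 without vehicle replicate 1. Under spike-in scaling the list median was 0.06, which is 0.37 above the median of all genes. Values relative to all genes stay close to those under TMM scaling by construction, here and in the lists below. TOP2A, the topoisomerase that untangles sister chromatids, had 506 and 482 CPM in vehicle, 180 and 178 after 5-FU, 381 and 402 after 3-MB-PP1, and 214 and 217 after both drugs. None of the groups overlapped, and the both-drug libraries were higher than the 5-FU libraries although 3-MB-PP1 without 5-FU went with a lower level than vehicle. The both-drug mean was 152% of the product (interaction 0.60, SE 0.07, adjusted p = 4.29e-06). TOP2A lies on chromosome 17 of hg19 from 38544773 to 38574202, minus strand.

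HMMR, a spindle-associated hyaluronan receptor, had 141 CPM in both vehicle libraries, 35 and 38.3 after 5-FU, 136 and 137 after 3-MB-PP1, and 56.6 and 58.0 after both drugs (0.69, SE 0.09, adjusted p = 2.49e-05). CENPA, the histone H3 variant of centromeres, had means of 32.2, 8.97, 15.3 and 8.13 CPM in vehicle, 5-FU, 3-MB-PP1 and both drugs (0.91, SE 0.17, adjusted p = 0.00215). Its 5-FU and both-drug libraries were close together, at 8.23 and 9.72 CPM and at 7.99 and 8.26 CPM. TTK, a kinase of the spindle checkpoint, had the same shape, with 37.4 and 37.8 CPM after 5-FU and 38.5 and 38.0 after both drugs against 92.0 and 95.7 after 3-MB-PP1 and 137 and 149 in vehicle (0.64, SE 0.10, adjusted p = 1.66e-04). Above additivity thus took the form of a further difference in HMMR and of a missing one in CENPA and TTK. DEPDC1, a mitotic regulator outside the list, had 0.80 (SE 0.09, adjusted p = 3.17e-06), and the mitotic helicase ERCC6L had 0.95 (SE 0.14, adjusted p = 1.14e-04), with a gene overlapping on its opposite strand.

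Genes of the G1/S transition and DNA replication were above additivity in 16 of 42 (38.1% against 2.11% of all genes). The number below was 1, and the median was 0.36. There were 8 above without both-drug replicate 2 and 10 without vehicle replicate 1, and the median under spike-in scaling was 0.01, or 0.32 above all genes. E2F2, an activator of S phase genes, had 51.7 and 52.5 CPM in vehicle, 7.63 and 6.84 after 5-FU, 32.1 and 31.4 after 3-MB-PP1, and 7.52 and 8.26 after both drugs, so the 5-FU and both-drug libraries overlapped (0.84, SE 0.16, adjusted p = 0.00218). CLSPN, the checkpoint adaptor claspin, had 28 and 29.2 CPM after 5-FU and 33.1 and 32.3 after both drugs (0.68, SE 0.10, adjusted p = 1.53e-04). GINS1, a subunit of the replicative helicase complex, had 0.62 (SE 0.12, adjusted p = 0.00203). The 1 member below was CCNE1, cyclin E1, which had 28.5 and 30.3 CPM after 5-FU and 14.8 and 18.4 after both drugs against 41.9 to 49.4 in the other 4 libraries (-0.68, SE 0.13, adjusted p = 0.00249).

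Outside the list, the replication genes ATAD5, which unloads the sliding clamp, and DSCC1, a subunit of an alternative clamp loader, had interactions of 0.89 (SE 0.15, adjusted p = 5.38e-04) and 0.75 (SE 0.11, adjusted p = 1.06e-04). In the fluoropyrimidine metabolism list, 5 of 22 were above (DCK, RRM1, RRM2, TK1 and UNG) and 0 below. RRM1, RRM2 and TK1 also sit in the G1/S and DNA replication list and were already counted above there, so the lists are not separate. Both subunits of ribonucleotide reductase, the enzyme that makes deoxynucleotides, were among them: RRM2 had 127 and 135 CPM after 5-FU and 158 and 153 after both drugs (0.57, SE 0.08, adjusted p = 3.02e-05), and RRM1 had 132 and 134 after 5-FU and 174 and 173 after both drugs (0.42, SE 0.07, adjusted p = 6.32e-04). In both genes the both-drug libraries were above the 5-FU libraries and below vehicle and 3-MB-PP1. TYMS, which encodes the 5-FU target thymidylate synthase, did not pass (0.46, SE 0.15, adjusted p = 0.0785) and overlaps a gene on its opposite strand. The list median was 0.12 and turned to -0.17 under spike-in scaling, 0.13 above that of all genes. Its count was 2 without either both-drug library or vehicle replicate 1, and 3 without 5-FU replicate 2 or vehicle replicate 2.

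All 24 homologous recombination and checkpoint genes had positive interactions, with a median of 0.33. Of these, 8 were called above (33.3% against 2.11% of all genes) and 0 below. The count above was lower in every fit that left out 1 library. Each of these fits has a group with a single library, and the part of this in the lower counts was not tested. Under spike-in scaling the list median was -0.00, or 0.30 above all genes. Of 40 replication-dependent histone genes, 7 were above and 0 below, with a median of 0.28 (-0.00 under spike-in scaling, 0.30 above all genes). HIST1H4C, a histone H4 gene, had 328 and 348 CPM in vehicle, 90.3 and 84.7 after 5-FU, 196 and 186 after 3-MB-PP1, and 77.5 and 83.4 after both drugs (0.70, SE 0.08, adjusted p = 8.17e-06). The both-drug libraries lay just under the 5-FU libraries, at 163% of the product. Histone genes have near-identical copies, so the counts of a single one are uncertain. Their number above was 15 without both-drug replicate 1, 1 without both-drug replicate 2, 3 without 5-FU replicate 2 or vehicle replicate 2, and 4 without vehicle replicate 1.

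Sterol synthesis genes were above additivity in 5 of 28, INSIG1 and ACAT2 among them, and below in 0, with a median of 0.14 that turned to -0.19 under spike-in scaling, 0.11 above that of all genes. INSIG1, which retains the sterol-sensing complex in the endoplasmic reticulum, had 72.7 and 71.0 CPM in vehicle, 9.87 and 9.12 after 5-FU, 27.0 and 30.2 after 3-MB-PP1, and 8.70 and 7.26 after both drugs. The both-drug libraries were the lowest, yet at 211% of the product (interaction 1.11, SE 0.16, adjusted p = 9.42e-05). ACAT2, which starts the pathway by joining acetyl-CoA units, had 0.68 (SE 0.12, adjusted p = 7.70e-04) and overlaps a gene on its opposite strand. The sterol count was 2 without either both-drug library, 3-MB-PP1 replicate 1 or vehicle replicate 1, and 3 without 5-FU replicate 2 or vehicle replicate 2.

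ARID5B and RHOU had among the largest interactions above additivity, and both were lower with 3-MB-PP1 after DMSO and higher with it after 5-FU. ARID5B, a chromatin-binding factor, had 14.3 and 12.4 CPM in vehicle, 14.4 in both 5-FU libraries, 5.73 and 6.21 after 3-MB-PP1, and 17.1 and 16.1 after both drugs. The 3-MB-PP1 libraries were the lowest and the both-drug libraries the highest, at 258% of the product (1.39, SE 0.17, adjusted p = 1.25e-05). Another gene overlaps ARID5B on the same strand, which makes this value uncertain. RHOU, an atypical small GTPase, had means of 8.78, 6.60, 5.16 and 8.68 CPM in vehicle, 5-FU, 3-MB-PP1 and both drugs (1.20, SE 0.21, adjusted p = 0.00115).

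Promoter sequence is shown for 3 genes above additivity and 3 below, because the mitosis genes lay on 1 side together and their promoters are known for a CCAAT box, bound by NF-Y, beside a TTTGAA element, the cell cycle genes homology region. The 150 bases before the RefSeq transcription start on GRCh38.p14 follow, 5′ to 3′ on the gene's strand. They are chr5:163460482-163460631 plus strand for HMMR, chr2:26785906-26786055 plus for CENPA, chr1:68497083-68497232 minus for DEPDC1, chr11:123062137-123062286 minus for HSPA8, chr20:31605139-31605288 plus for ID1 and chr12:89352502-89352651 minus for DUSP6. Capitals mark matches, on either strand, to the CCAAT box, to TTTGAA, to TATAAA, which is the TATA box, to GAANNTTC, a heat shock element unit, and to TGACGTCA, the cyclic AMP response element.
HMMR: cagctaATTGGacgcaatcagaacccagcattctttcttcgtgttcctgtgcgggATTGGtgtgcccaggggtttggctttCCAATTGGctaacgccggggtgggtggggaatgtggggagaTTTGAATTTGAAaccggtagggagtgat
CENPA: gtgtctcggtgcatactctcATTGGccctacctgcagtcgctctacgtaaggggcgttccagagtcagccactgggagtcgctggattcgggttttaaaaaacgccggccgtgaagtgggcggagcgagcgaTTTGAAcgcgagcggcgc
DEPDC1: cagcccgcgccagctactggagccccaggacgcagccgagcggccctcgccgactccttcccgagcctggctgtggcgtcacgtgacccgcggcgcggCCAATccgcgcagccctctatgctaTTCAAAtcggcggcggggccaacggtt
HSPA8: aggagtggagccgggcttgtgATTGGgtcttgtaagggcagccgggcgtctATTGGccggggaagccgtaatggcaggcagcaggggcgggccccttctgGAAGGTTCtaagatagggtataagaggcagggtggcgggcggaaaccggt
ID1: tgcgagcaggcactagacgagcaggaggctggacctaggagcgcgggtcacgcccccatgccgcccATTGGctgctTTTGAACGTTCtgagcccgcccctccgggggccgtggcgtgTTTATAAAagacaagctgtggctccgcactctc
DUSP6: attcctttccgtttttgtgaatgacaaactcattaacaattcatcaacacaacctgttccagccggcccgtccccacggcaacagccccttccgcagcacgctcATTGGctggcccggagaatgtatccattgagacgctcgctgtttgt
HMMR held 4 CCAAT and 2 TTTGAA matches, with 2 bases shared by neighbouring matches, and CENPA and DEPDC1 held 1 of each. HSPA8 held 2 CCAAT matches and 1 GAANNTTC match, and DUSP6 held 1 CCAAT match. ID1 held 1 CCAAT, 1 TTTGAA, 2 TATAAA and 1 GAANNTTC match, with 7 bases in 2 matches.

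In windows of 300 bases, from 250 before to 50 after the start, 26 of the 32 mitosis genes had an entry, and 80.8% of these held CCAAT and 73.1% TTTGAA. Of the 331 genes above additivity, 267 (80.7%) had an entry, and 52.4% held CCAAT and 27% TTTGAA. Among all 27305 windows of the table, taking the first per gene, 35.7% held CCAAT, 15.4% TTTGAA, 12% TATAAA, 6.87% GAANNTTC and 1.98% TGACGTCA. These windows include genes that were not tested here, so they are no matched background for the lists. The same shares for the genes below additivity and for all genes tested are void, because 72.6% and 73.8% of these had an entry. A match is a string of letters and not a site of binding.

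Some of the largest fitted interactions were in genes almost silent in vehicle cells, where the fitted value depends on the prior count, and their raw counts are given instead. VWA3A had 2 and 3 counts in the vehicle libraries, 11 and 16 after 5-FU, 404 and 58 after 3-MB-PP1, and 76 and 65 after both drugs. RAPSN, a synaptic scaffold of the acetylcholine receptor, had 1 and 4, 12 and 20, 100 and 16, and 21 and 17 in that order. GALNT13, a glycosyltransferase whose gene overlaps another on the opposite strand, had 1 and 1, 20 and 32, 48 and 9, and 26 and 29. The higher count in each 3-MB-PP1 pair came from the deepest library. All of these were counted more often after each drug alone than in vehicle. GRHL3, a transcription factor of epidermal differentiation, had 3 and 7 counts in vehicle, 57 and 78 after 5-FU, 59 and 14 after 3-MB-PP1, and 32 and 49 after both drugs.

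In the epithelial identity list 3 of 11 were below additivity (CLDN7, KRT18 and KRT19) and 0 above, with KRT19, a keratin of simple epithelia, at means of 428, 1060, 358 and 681 CPM in vehicle, 5-FU, 3-MB-PP1 and both drugs (-0.38, SE 0.07, adjusted p = 0.00215). Of 12 WNT target genes 1 was below, CCND1, the G1 cyclin D1, with 560, 1053, 699 and 967 CPM in that order (-0.44, SE 0.07, adjusted p = 5.23e-04), and 1 was above, TNFRSF19, with at most 71 counts in any library. None of the 30 transcription CDK and elongation genes, the 28 ribosome biogenesis genes or the 12 NF-kB and chemokine genes was called by edgeR. Of all genes tested, 4.1% were called in either direction, and lists of this size hold few calls at that share. These absences and the single calls that follow therefore say little about the lists. At an unadjusted p under 0.05 there were 5, 3 and 0 of them in that order. Their values ranged from -0.30 to 0.28 for the transcription list and from -0.18 to 0.26 for ribosome biogenesis. Without 5-FU replicate 2, 1 transcription gene and 2 ribosome biogenesis genes were above, without 3-MB-PP1 replicate 2 these were 2 and 1, and without 5-FU replicate 1 there was 1 transcription gene below. Of 53 cytoplasmic ribosomal protein genes 1 was above, RPL22, in the ATF4 amino acid list of 23 PSAT1 was above and CEBPB below, and 1 of 18 interferon genes was below, IRF9. All of these single calls ended without vehicle replicate 1 or without 3-MB-PP1 replicate 1, as did that of TNFRSF19. RPL22, PSAT1, IRF9 and TNFRSF19 also lost theirs without both-drug replicate 1 or vehicle replicate 2, CEBPB without both-drug replicate 1, RPL22, CEBPB and IRF9 without both-drug replicate 2, RPL22, PSAT1, CEBPB and TNFRSF19 without 5-FU replicate 1, and PSAT1 and IRF9 without 5-FU replicate 2. Without 3-MB-PP1 replicate 2, 5 ribosomal protein genes and 2 ATF4 genes were above and 2 ATF4 genes below, and without 5-FU replicate 2 there were 3 ATF4 genes below. In the unfolded protein response list 2 of 16 were below, HERPUD1 and XBP1. The unfolded protein count was 0 without both-drug replicate 1 or vehicle replicate 1, and 1 without both-drug replicate 2, 5-FU replicate 2, 3-MB-PP1 replicate 1 or vehicle replicate 2. Of 15 snoRNA host genes 1 was above (SNHG5), of 18 SR splicing factor and CLK genes 1 was above (SRSF1), and of 5 epidermal differentiation genes 1 was below (GRHL3). SNHG5 was called with 3-MB-PP1 replicate 2 or both-drug replicate 1 left out but with none of the other 6, and SRSF1 with only 5-FU replicate 2 left out. GRHL3 lost its call without both-drug replicate 1, 5-FU replicate 2, 3-MB-PP1 replicate 1 or vehicle replicate 1. None of the 2 fibroblast, 3 leukocyte and 3 endothelial markers tested was called, and 1, 0 and 0 had an unadjusted p under 0.05.

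The called genes also differed in length and level. The median genomic span was 33417 bases for the genes above additivity, 18093.5 for those below and 24270.5 for all tested. In 5 equal bins of span from shortest to longest, 1.08%, 1.62%, 2.71%, 3.53% and 1.59% of genes were above, and 2.67%, 2.23%, 1.81%, 1.85% and 1.43% were below. The median level also differed between these bins, from 9.65 CPM in the shortest to 32.1 in the fourth bin, and its part in the pattern was not tested. In 5 equal bins of mean CPM, the share above went from 0.0955% in the lowest to 5.47% in the highest and the share below from 0.382% to 3.37%.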

How the data were processed

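Total RNA of HCT-116 cells, depleted of rRNA, was read as single-end libraries (per the labels' protocols). Alignment tool TopHat2 2.0.13 and build hg19 appear in the submitters' processing notes. Which program counted reads, with which strand setting and annotation release, is not given in the sources used here. The tables deposited by the authors hold a raw count per RefSeq transcript, without normalization, and RPKM, the authors' count per transcript length and library total, which was used for the cell type markers alone. Of 41643 transcripts, 6260 had no symbol, and 5902 of these were named by accession from the RefSeq table of GRCh38.p14. Per symbol the row with the highest mean count was kept.

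Counts were fitted with edgeR 4.0.16 in R 4.3.3 (filterByExpr, TMM, quasi-likelihood F test, 1 model of 4 groups with 4 residual degrees of freedom), with Benjamini-Hochberg adjustment over 15714 genes and a threshold of 0.05. CPM are TMM-scaled, and SE were derived from the F statistics. The method was tested on simulated data. The 92 ERCC rows were left out of library sizes. Alternatives were RLE and ERCC scaling, DESeq2 1.42.0, voom of limma 3.58.1, other count filters, thinning to 10579257 counts, the longest transcript per symbol, a replicate block and leaving out each library.

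The members and the 32 gene lists were chosen with earlier results of these data known. Named genes were the 10 largest interactions per direction among called genes with a mean of at least 1 and of at least 20 CPM, up to 4 called members per list, and the fixed genes BBC3, FOS, MCL1, CDK7, MYC, MDM2 and CDKN1A. Small RNAs, uncharacterised or antisense symbols and symbols at several places were not ranked. Not every such gene is printed, and some items are not reported here. TYMS, CCNG1, CRIM1, TK1, HSPD1 and the genes of the last section were chosen after their values were seen.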

Additional observations from a re-analysis of the deposited data

Results flagged for a closer look

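Each of these results differs between cells with and without prior 5-FU, by the test of that difference itself (edgeR, interaction term). The 3-MB-PP1 effect differed between the arms for 331 genes in the upward direction and for 314 genes in the downward direction. Among the genes fixed by name, the difference between the arms was -0.67 for CDKN1A, -0.93 for MDM2 and -0.96 for MYC on the log2 scale, each with lower both-drug levels than multiplied effects would give.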

How the results depend on the processing

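The counts of genes above and below additivity moved most with spike-in scaling (0 and 0, against 331 and 314). DESeq2 gave 185 and 193, of which 185 and 192 were among the 331 and 314, and had no adjusted p for 56 called genes. Thinning every library to the smallest total gave 140 and 181, and no filter on low counts gave 424 and 478. Leaving out 1 library gave 87 to 552 above and 142 to 368 below. RLE scaling (314 and 333), voom (403 and 334), a stricter filter (334 and 330) and the longest transcript (321 and 309) stayed within 1.5 times.

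Of 102 called genes among the 107 named by rule, 53 kept their call without each library in turn, 63 in the other 8 settings apart from spike-in scaling, and 50 in all of these. Under spike-in scaling 3 of the 102 changed sign: PSAT1 to -0.033, RPL22 to -0.077 and SRSF1 to -0.10, as did CCNG1 to -0.053 and, among those not called, FOS from 0.10 to -0.30, relative to a median of -0.31. Spike-in scaling moves all genes by a similar amount, so these signs follow from the small sizes of the interactions. Why the spike-in shares differed between libraries was not tested.

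The correlations of replicate differences between groups were -0.12 to 0.11. They cannot settle whether the replicate numbers mark shared cultures or days, which the labels do not state. With the replicate number as a block, 363 genes were above and 312 below. Called genes had a median absolute interaction of 2.11 in the lowest of 5 equal bins of mean CPM and of 0.38 in the highest.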

Other observations

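The values of 8 more genes below additivity follow, each chosen after its value was seen and given as a single gene, not as a group. EGFR, the receptor of epidermal growth factor, had means of 51.1, 73.1, 50.9 and 43.9 CPM in vehicle, 5-FU, 3-MB-PP1 and both drugs (interaction -0.73, SE 0.09, adjusted p = 2.19e-05 in edgeR). EPHA2, an ephrin receptor, was higher after each drug, with 163, 435, 320 and 503 CPM, but reached 58.7% of the product (-0.77, SE 0.08, adjusted p = 8.67e-07). PLAU, the urokinase protease, had 31.8, 86.6, 36.0 and 53.7 CPM (-0.86, SE 0.10, adjusted p = 5.06e-06), and its receptor PLAUR had 17.8, 45.7, 21.3 and 27.0 CPM (-1.03, SE 0.15, adjusted p = 9.40e-05). THBS1, the matrix protein thrombospondin 1, had 16.9, 54.4, 23.7 and 37.6 CPM (-1.02, SE 0.13, adjusted p = 1.54e-05).

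SOX9, a transcription factor of intestinal crypts, had 57.9, 93.2, 52.5 and 46.6 CPM in vehicle, 5-FU, 3-MB-PP1 and both drugs (-0.85, SE 0.10, adjusted p = 3.88e-06). TRIB1, a pseudokinase that guides protein degradation, had 347, 492, 315 and 273 CPM (-0.72, SE 0.07, adjusted p = 2.90e-07). RHOB, a stress-induced small GTPase, had 70.1, 149, 64.1 and 79.6 CPM (-0.77, SE 0.09, adjusted p = 3.88e-06). The calls of these 8 genes ended under spike-in scaling alone among the alternatives tried (adjusted p = 0.996 for each).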
